A study of Arabidopsis thaliana with 21 samples.

Results

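The genes described here are 48 nuclear genes of Arabidopsis thaliana that encode parts of the light reactions of photosynthesis. They were chosen by function and not by a rule on measured values, though earlier results of these data were known. The list of loci holds 6 genes of the photosystem I antenna (LHCA1 to LHCA6), 7 of the photosystem II antenna (LHCB3, LHCB4.1, LHCB4.2, LHCB4.3, LHCB5, LHCB6 and LHCB7), 12 of photosystem I subunits, 12 of photosystem II subunits, 9 of electron transport and 2 of the chloroplast ATP synthase. All 48 loci were found among the 33655 features of the count table. In the thylakoid membrane, antenna proteins bind chlorophyll and pass excitation energy to the photosystems, photosystem II oxidises water, and the cytochrome b6f complex and plastocyanin carry electrons to photosystem I, from which ferredoxin and ferredoxin-NADP reductase (FNR) reduce NADP. Etiolated seedlings hold etioplasts, and the nuclear genes of the photosynthetic apparatus are known to be repressed in darkness by phytochrome-interacting factors (PIFs) and by the COP1-SPA ubiquitin ligase. Light acting through phytochromes relieves this repression.

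Whole seedlings were 3 days old and had grown in the dark after far-red light (10 µmol per m2 per s) given to inactivate phytochromes. RNA was sequenced either directly or after 1 h of red light (8 µmol per m2 per s by the sample labels, while the methods text differs). The 21 libraries made 7 groups of 3: wild type Col-0, the weak COP1 allele cop1-4 and the quadruple mutant spaQ (spa1 spa2 spa3 spa4), each after red light, and the transgenic lines phyB-GFP FL (full-length PHYB) and phyB-GFP ΔC (PHYB without its C-terminal end), each in darkness and after red light. Both transgenic lines carry phyA-211 and phyB-9, so neither has phytochrome A or the native phytochrome B, and each is a selected transformant. For the mutants and the wild type only red light libraries were used here. The comparisons asked how these genes differ between mutants and wild type after red light, and whether the C-terminal end of phyB changes their red light response. Nothing in the labels says that replicates came from separate cultures, so p-values measure the spread between these samples, which may be technical.

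Library totals ranged from 15678019 to 29523833 counts. The targeted genes were first checked against the labels. SPA1 and SPA3 had 42 to 46 and 24.8 to 28.1 CPM (counts relative to library size, here after 1 TMM scaling of 21 libraries) in spaQ and 332 to 345 and 158 to 167 CPM in Col-0. SPA2 and SPA4 had 50.8 to 56.4 and 68.8 to 73.9 CPM in spaQ, not below the 47 to 53.6 and 55.8 to 58.4 CPM of Col-0. A mutant allele can still give transcript reads, so these levels of SPA2 and SPA4 do not check the label. COP1 had 40 to 43.1 CPM in cop1-4 and 72.5 to 76.6 in Col-0. PHYB had 876 to 1432 CPM in the phyB-GFP libraries and 142 to 150 in Col-0. The phyB-GFP FL red library 3 stood apart: against the other red libraries of its group the chi-square per gene was 19.2 and 30.7, while those differed from each other by 4.50. All 47 testable members were highest of their group in that library, with a median ratio of 1.75 to the mean of the other 2. The same library had the lowest PHYB (876 CPM, against 1213 and 1303) and the lowest summed root markers (295 CPM, against 407 and 443) of its group. Results on phyB-GFP FL in red light are therefore set beside their values without it. Members moved together in other libraries as well, by less. Of 47 members, 47 were lowest of their group in ΔC dark library 3 (median ratio 0.83) and 46 in FL dark library 3 (0.77). In ΔC red library 3, 46 were highest (1.19), and in FL dark library 2, 45 (1.29). Outside the phyB-GFP lines, 44 were highest in Col-0 library 3 (1.07) and 40 in cop1-4 library 3 (1.08). Counts of members above or below 0 are therefore not counts of separate observations.

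Members differed widely in level. On the scale of CPM per kilobase of exon, which allows genes to be compared and again rests on the scaling of all 21 libraries, LHCA4 (957 ± 42.6, SD, n = 3), LHCB3 (907 ± 34.2) and LHCB5 (899 ± 20.4) were highest in Col-0 after red light and differed from each other by little more than their spread. LHCA4 is an antenna protein of photosystem I, LHCB3 a subunit of the light-harvesting trimers of photosystem II and LHCB5 its monomeric antenna CP26. Overlaps with opposite-strand exons, of 186 bases for LHCB3, 53 for LHCA4 and 0 for LHCB5, were not corrected for on this scale. LHCB4.3 (29.8 ± 2.17) and LHCB7 (19.4 ± 1.12), less known relatives of the antenna, were lowest among the members that passed the filter on low counts. PSBP2, a relative of the oxygen-evolving protein PSBP1, had 1 to 12 counts per library and was the only one of the 48 that failed this filter in the fits of 9 and of 12 libraries, so 47 members were tested there. In cop1-4 and spaQ the order changed at the top: PSBR, a small subunit near the oxygen-evolving complex, led with 4929 ± 188 and 5224 ± 768 CPM per kilobase.

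**Figure D1:**
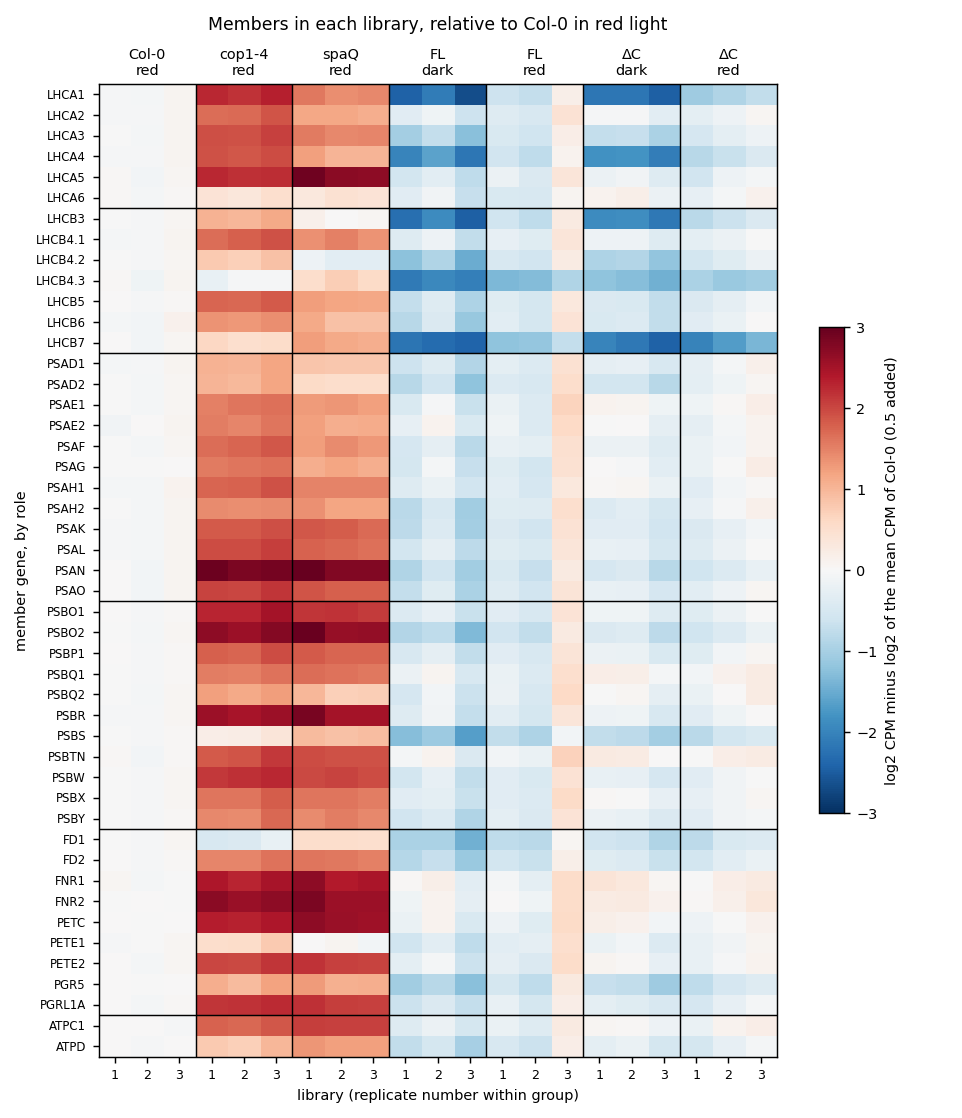
Level of 47 members (rows, by role from photosystem I antenna at the top to ATP synthase at the bottom) in the 21 libraries (columns), as log2 CPM minus log2 of the mean of Col-0 in red light, with 0.5 CPM added. The cop1-4 and spaQ columns are red for most members, the dark columns are blue above all for LHCA1, LHCA4, LHCB3, LHCB4.3 and LHCB7, and column 3 of phyB-GFP FL red differs from columns 1 and 2.

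After 1 h of red light most members were higher in both mutants than in Col-0. On the scaling of all 21 libraries, summed over the 48 members, Col-0 libraries had 18868 to 20197 CPM, those of cop1-4 64312 to 70956 and those of spaQ 55048 to 60757, and no library of either mutant overlapped with Col-0. In spaQ, 36 of 47 members were higher than in Col-0 at an adjusted p under 0.05 and a fold above 2, where 15.0% of all genes tested were called higher and 17.5% lower, and 0 members were called lower. In cop1-4, 39 of 47 were called higher, against a background of 10.7% higher and 13.1% lower, and again 0 lower. The median log2 fold change of the members was 1.46 in spaQ and 1.76 in cop1-4, while that of all genes was 0.01 and 0.00. Without the fold limit 1 member was lower in each mutant, LHCB4.2 in spaQ and FD1 in cop1-4, against 39.2% and 36.6% of all genes. Both comparisons use the same Col-0 libraries, so the 2 sets of calls are not independent.

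**Figure D2:**
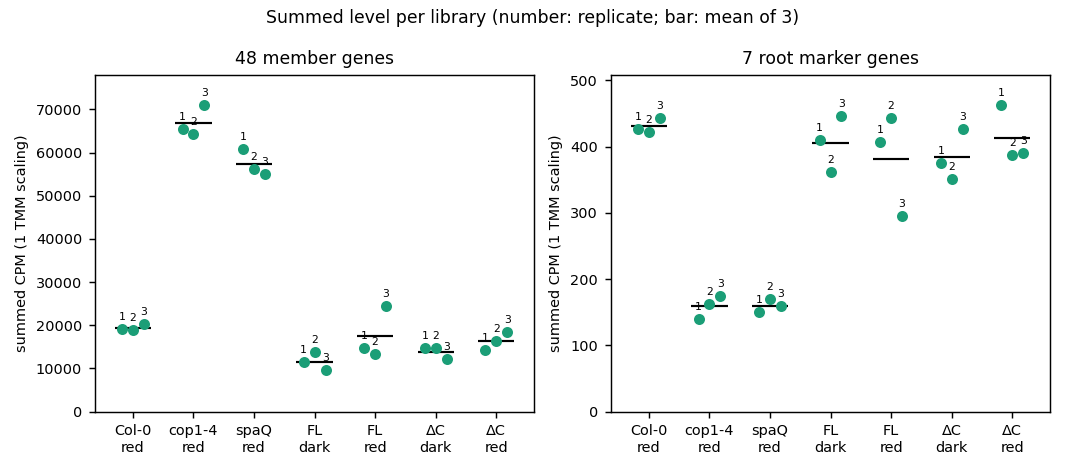
Summed CPM of the 48 members (left) and of 7 root marker genes (right) in each of the 21 libraries, after 1 TMM scaling, with replicate numbers beside the points and bars at the mean of 3. Members lie at 55048 CPM or above in both mutants and at 24522 or below elsewhere, and phyB-GFP FL red library 3 has the highest member sum and the lowest root marker sum of its group.

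The mutants also differed from Col-0 in genes that mark other tissues. Summed root markers fell from 423 to 443 CPM in Col-0 to 140 to 175 in cop1-4 and 150 to 170 in spaQ, none of the 7 being at 0. The endodermis genes CASP1 and CASP2 were called lower in both mutants (log2 fold changes of -3.13 and -3.25 in spaQ). The 4 root hair genes among the root markers were called higher in spaQ, and 3 of the 4 in cop1-4. Both green tissue markers, RBCS1A and CA1, were called higher in both mutants. In whole seedlings a changed number of cells of a type and a changed amount of RNA per cell cannot be told apart, and the part of tissue make-up in the members' differences was not tested.

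From here on, the CPM of a gene are on the scaling of the fit they are compared in, of 9 libraries (Col-0, cop1-4 and spaQ), 12 libraries (both phyB-GFP lines) or 21 libraries (phyB-GFP FL against Col-0), so 1 library can have different CPM for a gene in different comparisons. Among subunits of photosystem I, PSAN (AT5G64040), which lies on the lumenal side near the plastocyanin docking site, rose most. It had 281, 260 and 294 CPM in the Col-0 libraries, 2776, 1905 and 1915 in spaQ, and 2147, 1969 and 2009 in cop1-4. The groups were far apart, although spaQ library 1 was well above the other 2. The log2 fold change was 2.98 ± 0.10 (SE, n = 3 per group, edgeR quasi-likelihood test, adjusted p = 8.88e-20) in spaQ and 2.87 ± 0.10 (adjusted p = 2.83e-19) in cop1-4. Of the 12 photosystem I members, 10 were called higher in spaQ and 12 in cop1-4, with medians of 1.31 and 1.69. The pair that missed the fold limit in spaQ was PSAD1 (0.82) and PSAD2 (0.54), copies of the subunit that binds ferredoxin.

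Among subunits of photosystem II, 9 of 11 were called higher in spaQ and 10 of 11 in cop1-4. PSBO2 (AT3G50820), a copy of the protein that stabilises the manganese cluster, had 195, 187 and 205 CPM in Col-0, 1532, 1210 and 1227 in spaQ, and 1249, 1161 and 1320 in cop1-4. These are log2 fold changes of 2.76 ± 0.07 (edgeR, adjusted p = 1.2e-21) and 2.67 ± 0.07 (adjusted p = 4.09e-21). PSBR rose by 2.53 ± 0.07 in cop1-4 (edgeR, adjusted p = 7.55e-21). PSBS (AT1G44575), the sensor of lumen pH in energy-dependent quenching, was the member of this group that changed least in cop1-4, from 776, 760 and 799 CPM to 897, 902 and 989, a log2 fold change of 0.26 ± 0.05. The copies of the extrinsic protein PSBQ differed in their calls in spaQ: PSBQ1 was called (1.64 ± 0.05), whereas PSBQ2 (0.83 ± 0.06) stayed under the fold limit.

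In the photosystem I antenna, 5 of 6 members were called higher in each mutant and LHCA6 was the exception, with 0.40 ± 0.05 in spaQ and 0.42 ± 0.05 in cop1-4. LHCA5 (AT1G45474), a low-abundance antenna protein that takes part in the supercomplex of photosystem I with the NADH dehydrogenase-like complex, had 40.5, 37.2 and 41.4 CPM in Col-0 and 300.0, 264 and 257 in spaQ. Its log2 fold change there was 2.79 ± 0.06 (edgeR, adjusted p = 1.64e-23). LHCA2, the close relative of LHCA6, rose by 1.15 ± 0.06 in spaQ and by 1.75 ± 0.06 in cop1-4. With library size alone as the scaling, which moves the median of all genes to -0.24 in spaQ and -0.20 in cop1-4, LHCA2 in spaQ came to 0.90 and fell under the fold limit.

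In electron transport, 7 of 9 members were called higher in each mutant, and copies of the same carrier got different calls. FNR2 (AT1G20020), a leaf-type FNR, rose by 2.66 ± 0.06 in spaQ (edgeR, adjusted p = 5.55e-23) and by 2.65 ± 0.06 in cop1-4 (adjusted p = 1.16e-22). Plastocyanin is encoded by PETE1 (AT1G76100) and PETE2 (AT1G20340). PETE2 rose by 2.08 ± 0.06 and 2.04 ± 0.06 in spaQ and cop1-4. PETE1 had 49.4, 49.6 and 52.7 CPM in Col-0 and 51.3, 53.4 and 48.3 in spaQ, which overlapped (log2 fold change 0.01 ± 0.06, adjusted p = 0.86, edgeR, n = 3 per group), and 73.5, 74.6 and 87.1 in cop1-4 (0.63 ± 0.06). The share of PETE1 in the reads of the pair was accordingly 9.0% ± 0.20 (SD, n = 3) in Col-0, 2.3% in spaQ and 3.6% in cop1-4. Ferredoxin FD2 rose by 1.58 ± 0.05 and 1.52 ± 0.05. FD1 (AT1G10960), the minor leaf ferredoxin, had 356, 350 and 373 CPM in Col-0, 522, 518 and 511 in spaQ and 259, 264 and 308 in cop1-4. The 3 groups did not overlap, and FD1 was above Col-0 in spaQ (0.52 ± 0.05, edgeR adjusted p = 3.04e-09) and below it in cop1-4 (-0.38 ± 0.06, adjusted p = 1.22e-06), each short of the fold limit.

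**Figure D3:**
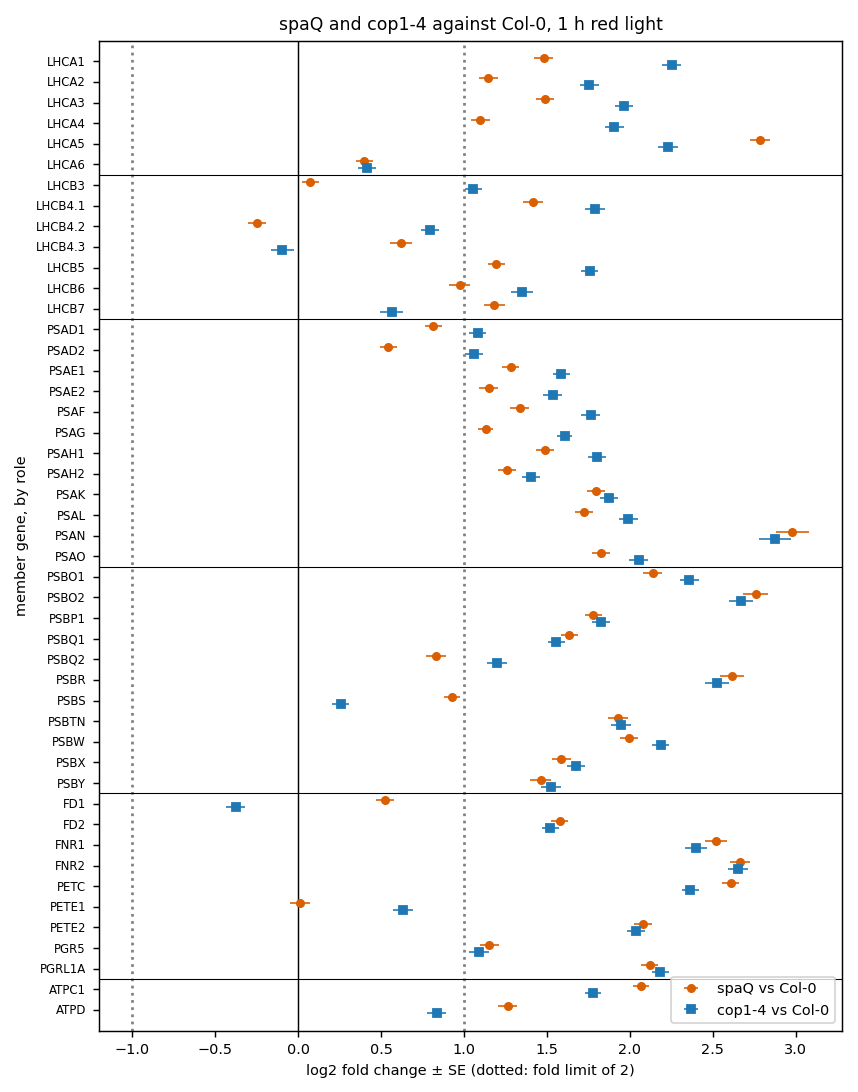
Log2 fold change with its standard error for each of 47 members (rows, by role) in spaQ (circles) and cop1-4 (squares) against Col-0 after red light, with dotted lines at a fold of 2. Most members lie to the right of the dotted line in both mutants, and LHCB3, LHCB4.2, LHCB4.3, PETE1 and FD1 lie near 0 or to its left in at least 1 of them.

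Of the photosystem II antenna, 3 of 7 members were called higher in spaQ and 4 of 7 in cop1-4, with medians of 0.97 and 1.06. LHCB3 had 1019, 996 and 1079 CPM in Col-0, 1139, 1034 and 1083 in spaQ and 2133, 2044 and 2252 in cop1-4. It thus overlapped with Col-0 in spaQ (0.07 ± 0.05, adjusted p = 0.195, edgeR, n = 3 per group) and was called higher in cop1-4 (1.06 ± 0.05). The 3 copies of the monomeric antenna CP29, LHCB4.1 (AT5G01530, chr5:208866-210548), LHCB4.2 (AT3G08940, chr3:2717557-2718923) and LHCB4.3 (AT2G40100, chr2:16745628-16747424) in TAIR10 coordinates, did not move together. LHCB4.1 had 565, 571 and 615 CPM in Col-0, 1520, 1668 and 1486 in spaQ and 1876, 2010 and 2171 in cop1-4. LHCB4.2 had 607, 593 and 641 CPM in Col-0, 555, 496 and 495 in spaQ and 1052, 1011 and 1129 in cop1-4. LHCB4.1 was higher in both mutants (1.42 ± 0.06 and 1.79 ± 0.06), whereas LHCB4.2 was slightly lower in spaQ (-0.25 ± 0.05, edgeR adjusted p = 0.000176) and higher in cop1-4 (0.79 ± 0.05, adjusted p = 9.96e-13). LHCB4.3 was higher in spaQ (0.62 ± 0.07, adjusted p = 3.57e-09, edgeR) and overlapped with Col-0 in cop1-4 (-0.10 ± 0.07, adjusted p = 0.219, edgeR, n = 3 per group). The share of LHCB4.1 in the reads of LHCB4.1 and LHCB4.2 was 48.7% ± 0.5 in Col-0, 75.1% ± 1.9 in spaQ and 65.5% ± 1.3 in cop1-4 (SD, n = 3).

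The stretches upstream of this pair are shown because the copies share most of their coding sequence and yet differed in the mutants. Coding sequences of LHCB4.1 and LHCB4.2 were 81.9% identical over 864 aligned bases, and the longest run shared without a mismatch was 23 bases. Sequences are from RefSeq TAIR10.1, 5′ to 3′ on the gene's strand, and end 1 base before the annotated gene start. They are cut where exons of a neighbouring gene begin. Capitals mark the G-box CACGTG and the PBE-box CACATG, both known as binding sequences of PIFs, and the I-box GATAAG, in either orientation.
LHCB4.1, chr5:208616-208865, forward strand: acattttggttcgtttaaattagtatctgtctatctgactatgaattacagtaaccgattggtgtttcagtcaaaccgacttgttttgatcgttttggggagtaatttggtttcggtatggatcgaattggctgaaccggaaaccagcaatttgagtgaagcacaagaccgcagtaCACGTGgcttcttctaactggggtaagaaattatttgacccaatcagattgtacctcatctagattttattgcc
LHCB4.2, chr3:2717367-2717556, forward strand: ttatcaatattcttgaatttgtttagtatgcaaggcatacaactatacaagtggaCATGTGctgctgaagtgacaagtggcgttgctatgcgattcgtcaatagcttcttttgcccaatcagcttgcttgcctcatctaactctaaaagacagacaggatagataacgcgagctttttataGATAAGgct
LHCB4.1 held a G-box, and LHCB4.2 held a PBE-box and an I-box but no G-box. In the 250 bases upstream of each gene, searched on both strands, 11 of the 48 members (22.9%) held a G-box, against 6.49% of 27443 protein-coding genes. An I-box stood in 12 members (25.0%, against 12.3%), a PBE-box in 7 (14.6%, against 11.1%) and the core ACGT, which is part of the G-box, in 26 (54.2%, against 44.1%). The evening element core AATATCT stood in 5 (10.4%, against 10.0%) and the CCA1-binding site AAAATCT in 12 (25.0%, against 16.5%). These matches describe letters in a window and are not tested sites.

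Directly compared, spaQ and cop1-4 differed by less than 2-fold in all but 1 of the 47 members. LHCB4.2 was called lower in spaQ (-1.05 ± 0.05, edgeR adjusted p = 3.9e-14), where 8.52% of all genes were called in either direction and 5.63% lower. Without the fold limit 8 members were higher and 23 lower in spaQ than in cop1-4, against 26.7% and 26.1% of all genes. LHCB3 was called as well without cop1-4 library 2 or spaQ library 1. By role, the median difference was -0.54 for the photosystem I antenna, -0.37 for the photosystem II antenna, -0.29 for photosystem I, -0.05 for photosystem II, 0.06 for electron transport and 0.36 for the ATP synthase. Of the photosystem I genes, 4 of 6 of the antenna and 10 of 12 subunits were lower at an adjusted p under 0.05, with 1 and 0 higher. The following members are named because of their values. LHCB3 (-0.98 ± 0.05), LHCA4 (-0.81 ± 0.06) and LHCA1 (-0.77 ± 0.06), whose product forms a dimer with LHCA4, were lower in spaQ. FD1 (0.90 ± 0.06, adjusted p = 8.81e-13, edgeR), LHCB4.3 (0.71 ± 0.07), PSBS (0.67 ± 0.05), LHCB7 (0.62 ± 0.06) and LHCA5 (0.55 ± 0.05) were higher. FNR2 (0.01 ± 0.06) and LHCA6 (-0.02 ± 0.05) differed least.

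**Figure D4:**
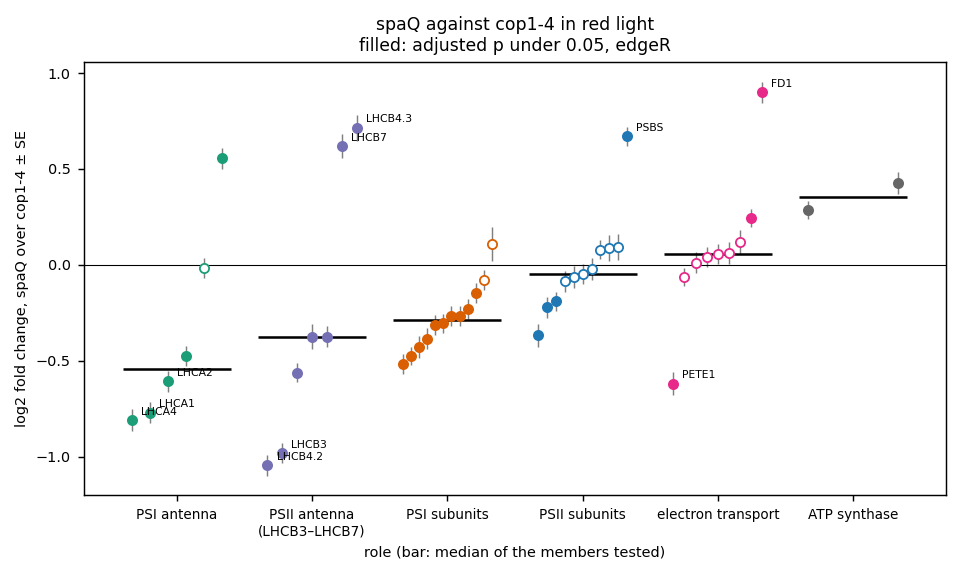
Log2 fold change of spaQ over cop1-4 after red light, with its standard error, for 47 members by role; bars are medians of -0.54, -0.37, -0.29, -0.05, 0.06 and 0.36 from left to right. Filled points have an adjusted p under 0.05 in edgeR, and members beyond 0.6 in either direction are named.

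Outside the member list, genes of the major light-harvesting trimers and other thylakoid genes were counted in the same way. Of 8 genes LHCB1.1 to LHCB2.3, 7 were tested, LHCB1.5 being left out by the filter. Of the 7, 3 were called higher in spaQ and 7 in cop1-4, where 15.0% and 10.7% of all genes were called higher. LHCB1.4 was at 3.22 ± 0.07 in cop1-4. Of 28 other thylakoid genes, 26 were tested, ATPC2 and NDHL being left out. Of the 26, 19 were called higher in spaQ and 13 in cop1-4, against the same shares of all genes. In each mutant 1 was called lower, against 17.5% of all genes in spaQ and 13.1% in cop1-4. The genes left out overlap exons on the opposite strand, as given below. HCF136, an assembly factor of photosystem II, rose by 3.04 ± 0.06 and 2.47 ± 0.06.

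In phyB-GFP FL, 1 h of red light raised a small set of antenna genes. At an adjusted p under 0.05 and a fold above 1.5, 11 of 47 members were called higher after red light and 0 lower, where 3.28% of all genes were called higher and 1.72% lower. All 47 log2 fold changes were above 0, as were those of 49.3% of all genes, and their median was 0.46. Without red library 3, 6 members were called higher, against 2.89% of all genes. In that fit 37 of 48 were above 0 and the median was 0.19. The 6 were LHCA1, LHCA4, LHCB3, LHCB4.2, LHCB4.3 and LHCB7, antenna genes all. Without red library 2, whose members were low, 23 were called higher, against 3.65% of all genes. The count was also 6 without dark library 1 and 6 without dark library 3, against 2.75% and 2.99% of all genes called higher.

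LHCA1 (AT3G54890, chr3:20339504-20341176) rose most. It had 126, 158 and 107 CPM in the dark libraries of phyB-GFP FL and 427, 410 and 751 after red light. The lowest red library was above the highest dark one, and the log2 fold change was 2.02 ± 0.21 (edgeR, adjusted p = 1.67e-05, n = 3 per group), or 1.68 ± 0.14 without red library 3. LHCB3 (AT5G54270, chr5:22038165-22039568) went from 251, 325 and 225 CPM to 792, 713 and 1431 (1.87 ± 0.23, edgeR adjusted p = 6.35e-05; 1.49 ± 0.14 without that library). LHCA4 (AT3G47470, chr3:17493343-17495033) went from 335, 435 and 302 CPM to 879, 779 and 1402 (1.51 ± 0.20, edgeR adjusted p = 0.00014; 1.21 ± 0.14 without it). LHCB7 (AT1G76570, chr1:28728998-28730851) was near the bottom of the scale, with 5.08, 4.69 and 4.44 CPM in darkness and 10.4, 10.9 and 15.1 after red light (1.35 ± 0.19, edgeR adjusted p = 0.00027; 1.17 ± 0.18 without it). LHCB4.3 had 10.3, 11.7 and 10.9 CPM in darkness and 17.7, 18.3 and 24.1 after red light (0.87 ± 0.12, edgeR adjusted p = 0.000265; 0.71 ± 0.10 without it). All 5 genes, together with LHCB4.2, kept their call without red library 3.

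The stretches upstream of the 3 genes that responded most are shown because the same 3 were called in both lines.
LHCA1, chr3:20341177-20341356, reverse strand: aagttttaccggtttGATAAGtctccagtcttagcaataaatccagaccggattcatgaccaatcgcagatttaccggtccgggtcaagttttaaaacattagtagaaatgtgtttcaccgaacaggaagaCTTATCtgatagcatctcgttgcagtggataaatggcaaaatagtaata
LHCA4, chr3:17495034-17495283, reverse strand: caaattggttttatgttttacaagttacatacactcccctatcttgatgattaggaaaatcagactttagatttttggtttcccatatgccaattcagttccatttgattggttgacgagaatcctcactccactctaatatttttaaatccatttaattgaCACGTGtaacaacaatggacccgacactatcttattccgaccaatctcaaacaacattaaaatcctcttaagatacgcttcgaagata
LHCB3, chr5:22038053-22038164, forward strand: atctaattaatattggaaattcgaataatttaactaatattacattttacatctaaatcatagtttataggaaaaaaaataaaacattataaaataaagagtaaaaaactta
LHCA4 held a G-box and LHCA1 a pair of I-boxes, while the stretch shown for LHCB3, which is the shortest, held neither, so the stretches shown for the 3 genes had no one of these motifs in common.

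The other 5 calls in phyB-GFP FL were lost without red library 3. PSAD2 (0.79 ± 0.23), PSAH2 (0.72 ± 0.20), PSBS (0.77 ± 0.19), PGR5 (0.75 ± 0.22), a protein of cyclic electron flow, and LHCA3 (0.71 ± 0.19) had adjusted p-values between 0.0187 and 0.0484 in edgeR. Without that library all of them were under the fold limit. Their paralogues PSAD1 (0.56 ± 0.19) and PSAH1 (0.24 ± 0.17) were not called, and PSAH1 was at -0.04 without it. LHCB4.2 (0.94 ± 0.20, and 0.63 ± 0.14 without that library) was called and LHCB4.1 (0.34 ± 0.18) was not. The share of LHCB4.1 in the reads of that pair was 62.1% ± 0.9 in darkness and 52.2% ± 1.0 after red light (SD, n = 3). Each share was taken within a library and so does not depend on scaling. LHCA6 (0.07 ± 0.17) and FNR1 (0.11 ± 0.18) changed least.

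In phyB-GFP ΔC the same 3 leading genes were called by edgeR. LHCB4.2 was a further call with DESeq2 (0.63 ± 0.20, adjusted p = 0.0264) and with all 21 libraries in 1 edgeR fit (0.64 ± 0.16, adjusted p = 0.0137). LHCA1 had 150, 149 and 122 CPM in darkness and 321, 354 and 402 after red light (1.35 ± 0.21, edgeR adjusted p = 0.0009). LHCB3 had 327, 330 and 270 CPM and then 687, 768 and 884 (1.34 ± 0.22, edgeR adjusted p = 0.00182). LHCA4 had 379, 382 and 316 CPM and then 747, 829 and 968 (1.24 ± 0.20, edgeR adjusted p = 0.00125). In each, dark and red libraries were well apart. These 3 of 47 compare with 1.59% of all genes called higher and 1.3% called lower, 0 members being lower. The median over the members was 0.14, with 36 above 0 and 11 below. It was 0.04 without red library 3 (27 above 0 and 20 below), 0.05 without dark library 3 (28 and 19) and 0.21 without red library 1 (44 and 4). PSAE2 (0.00 ± 0.21) and PETE2 (-0.01 ± 0.21) changed least, and LHCA5, the relative of LHCA4, was at -0.03 ± 0.18. The share of LHCB4.1 in its pair with LHCB4.2 was 61.9% ± 0.4 in darkness and 52.2% ± 0.9 after red light, close to the values of phyB-GFP FL.

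**Figure D5:**
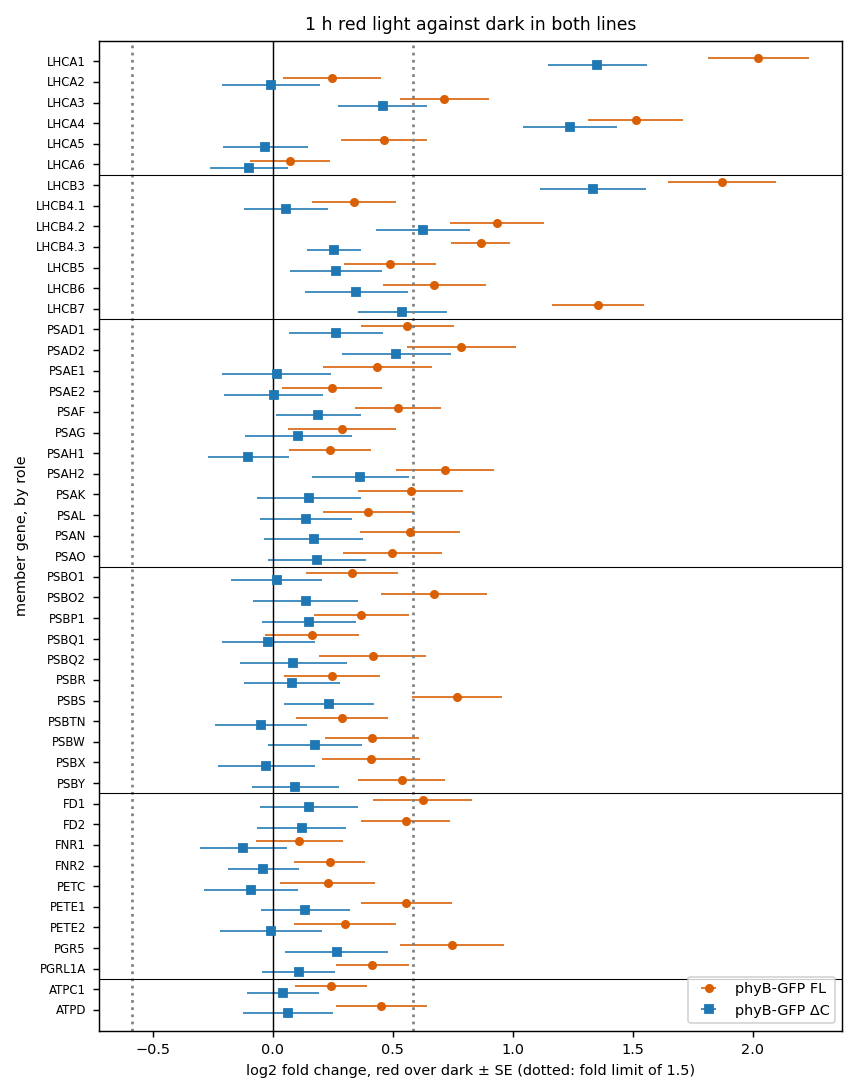
Log2 fold change of red light over darkness, with its standard error, for 47 members (rows, by role) in phyB-GFP FL (circles) and phyB-GFP ΔC (squares), with dotted lines at a fold of 1.5. LHCA1, LHCA4 and LHCB3 stand apart in both lines (1.24 to 2.02), and every circle lies to the right of its square in the fit with all libraries.

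An interaction term of line and light in the edgeR model gave the test of whether the 2 lines differed in their response. No member was called (0 of 47 by edgeR, and 0 by DESeq2), where 0.103% of all genes were. At an unadjusted p under 0.05 there were 3, against 4.52% of all genes. All 47 estimates of the difference, ΔC minus FL, were below 0, with a median of -0.32, and 51.1% of all genes were negative. Without phyB-GFP FL red library 3, 22 of 48 were positive and 26 negative, and the median was -0.01. It was -0.48 without phyB-GFP FL red library 2 and -0.21 without its dark library 3. LHCA1, the member with the largest rise, had a difference of -0.67 ± 0.29 (edgeR adjusted p = 0.999) with all libraries and -0.33 ± 0.18 without phyB-GFP FL red library 3. The largest difference, -0.81, was in the photosystem II antenna, and the lowest adjusted p of a member was 0.409 (edgeR). Without phyB-GFP FL red library 3 differences ranged from -0.63 to 0.18. In that fit 2 members had an unadjusted p under 0.05 in edgeR, against 941 of 20702 genes. LHCA6 and PSBR had the smallest differences, -0.17 ± 0.23 and -0.17 ± 0.28. A difference between the lines was thus not detectable for single members, which does not show that their responses were alike.

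The lines were also compared within each light condition. In darkness 1 of 47 members was called higher in phyB-GFP ΔC by edgeR, LHCB4.3, where 0.587% of all genes were called higher. An unadjusted p under 0.05 in edgeR was reached by 4 of the 47 members, against 2851 of 20459 genes. The 47 log2 fold changes lay between 0.01 and 0.75 with a median of 0.27, while that of all genes was 0.00. Without phyB-GFP FL dark library 3 the median of the members was 0.16, with 45 of 48 above 0. It was 0.40 without phyB-GFP FL dark library 2, with 47 of 47 above 0. LHCB4.3 had 19.8, 18.9 and 16.6 CPM in phyB-GFP ΔC and 10.3, 11.7 and 10.9 in phyB-GFP FL, groups that did not overlap (0.75 ± 0.12, edgeR adjusted p = 0.00604). Its paralogues LHCB4.1 (0.17 ± 0.18) and LHCB4.2 (0.18 ± 0.19) overlapped. After red light 0 members were called by edgeR, 2 having an unadjusted p under 0.05 (LHCB7, -0.67 ± 0.18, adjusted p = 0.0648, and LHCA1, -0.56 ± 0.20, or -0.48 ± 0.17 and -0.22 ± 0.14 without phyB-GFP FL red library 3), and 1 (LHCB7) by DESeq2, against 1.67% of all genes called and 16.5% at an unadjusted p under 0.05. The median was -0.07, with 37 members below 0, and 0.26 without phyB-GFP FL red library 3, with 45 of 48 above 0. Without phyB-GFP ΔC red library 1 it was 0.02, with 28 above 0 and 20 below, so its sign changed with the library left out.

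After red light phyB-GFP FL and Col-0, which differ in phytochrome A as well as in the form and amount of phytochrome B, were set side by side. In the fit of all 21 libraries 2 of 48 members were called lower in phyB-GFP FL, where 5.12% of all genes were. LHCB4.3 had 16.8, 17.1 and 22.8 CPM against 43.9, 39.8 and 45.9 in Col-0 (-1.19 ± 0.10, edgeR adjusted p = 1.08e-08). LHCB7 had 9.85, 10.2 and 14.2 CPM against 23.9, 22.1 and 24.7 (-1.04 ± 0.13, edgeR adjusted p = 3.44e-06). These 2 genes did not overlap between the groups with or without red library 3. Without it 11 members were called lower, where 5.46% of all genes were. The added calls were LHCA1, LHCA4, LHCB3, PSBS, PSBO2, PSAN, PGR5, FD1 and FD2. All 48 members were below 0 and the median went from -0.09 to -0.43. The median was -0.01 without red library 1 (23 of 48 above 0) and 0.04 without red library 2 (30 above 0). In each of these cases 2 members were called lower, against 5.28% and 6.17% of all genes.

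Outside the member list, 7 genes of the major light-harvesting trimers were tested in the phyB-GFP lines. After red light 6 were called higher in the full-length line and 5 in the ΔC line, against 3.28% and 1.59% of all genes. LHCB1.1 rose by 4.94 ± 0.30 and 2.73 ± 0.26. It was the only one of the 7 with a called interaction (-2.21 ± 0.37, edgeR adjusted p = 0.0459). Without phyB-GFP FL red library 3, again 6 of the 7 were called in the full-length line, and LHCB1.1 had a rise of 4.47 ± 0.15 and an interaction of -1.73 ± 0.19 (edgeR adjusted p = 0.00167). Of 26 other thylakoid genes, 1 was called in phyB-GFP FL (STN7, a thylakoid kinase, 0.90 ± 0.12, or 0.82 ± 0.13 without that library) and 0 in phyB-GFP ΔC by edgeR. No root marker was called in either line.

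Some members share sequence with others or overlap a gene on the opposite strand, and the strand setting of the counting is not given. Coding identity was 88.0% for PSAD1 and PSAD2, 87.0% for PSAH1 and PSAH2 and 83.8% for PSBO1 and PSBO2, with shared runs of at most 35 bases, so how reads were split within these pairs is uncertain to that extent. PSAH1 overlaps exons of an antisense gene over 693 of its 1300 exon bases and PSAG over 479 of 780. For PSAE1, LHCB6 and PSAH2 antisense overlaps came to 272 of 798, 246 of 1204 and 174 of 702 bases. LHCB3, a gene several results turn on, overlaps an antisense gene over 186 of 1242 bases. Without strand, reads of such partners cannot be told apart. Whether reads there were counted for the member, the partner or neither was not tested. FD1 overlaps a gene on the same strand over 78 of its 854 exon bases, and how reads there were counted was not tested either. LHCB1.5, ATPC2 and NDHL, genes outside the member list that were not tested, had summed antisense overlaps of 1144, 1415 and 919 bases. Their exon bases were 1045, 1250 and 824.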

How the data were processed

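Counts of reads per gene were deposited by the authors as 1 table of 21 libraries. According to the submitters' processing notes and the study's methods, FastQC, TopHat with Bowtie2, HTSeq and DESeq2 were used with genome build TAIR10; strand mode and further settings are not given in the sources used here. From these raw counts, edgeR 4.0.16 in R 4.3.3 was used for the quasi-likelihood test with TMM scaling and its default filter on low counts, in fits of 9 libraries (Col-0, cop1-4, spaQ), 12 libraries (both phyB-GFP lines) and 21 libraries (phyB-GFP FL against Col-0). P-values were adjusted by Benjamini-Hochberg over the 20396, 20459 and 20949 genes tested. A call needed an adjusted p under 0.05 and a fold above 2 (9 libraries) or 1.5 (others), and the interaction no fold limit. Depth was 15678019 to 29523833 counts per library, so 3 counts correspond to 0.10 to 0.19 CPM. The fits were first tested on simulated data.

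The members and gene lists were chosen with earlier results of these data known. Full values were given for the up to 4 members per direction with the largest called change, the 2 with the smallest change, and paralogue pairs whose calls differ; other members were named after their values were seen, among them LHCA1, LHCA4, LHCB3, FD1, PSBS, LHCB7 and LHCA5 in spaQ against cop1-4. Alternatives were DESeq2 1.42.0, other scalings, filters and fold limits, a replicate block and leaving out each library. No label pairs same-numbered replicates, and they were not treated as pairs. Gene positions and upstream sequences came from RefSeq TAIR10.1, whose nuclear chromosomes are those of TAIR10; all 48 loci matched. The value of 1 root marker is not reported here.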

Additional observations from a re-analysis of the deposited data

Results flagged for a closer look

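LHCB4.2 and FD1 moved in opposite directions from Col-0 in the 2 mutants, in every library. LHCB4.2 was lower in spaQ and higher in cop1-4, and the tested difference of spaQ over cop1-4 was -1.05 ± 0.05 on the log2 scale (edgeR, adjusted p = 3.9e-14). FD1 was higher in spaQ and lower in cop1-4, with a difference of 0.90 ± 0.06 (edgeR, adjusted p = 8.81e-13).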

How the results depend on the processing

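The calls of 36 members in spaQ and 39 in cop1-4 against Col-0 stayed within 1.5 times under DESeq2, other scalings and filters, the block and each left-out library. They were 29 and 34 with library size alone, against 10.7% and 7.93% of all genes called higher. The fold limits as the study's methods write them, log2 2 and 1.5, gave 11 in spaQ, 13 in cop1-4 and 3 in phyB-GFP FL. The count was 0 for spaQ against cop1-4, for phyB-GFP ΔC, for the lines in darkness and for phyB-GFP FL against Col-0. Shares of all genes at these limits were not counted, so these counts have no background to be read against. With no fold limit spaQ and cop1-4 differed in 31 members, against 26.7% of all genes higher and 26.1% lower. For phyB-GFP FL and Col-0 the count was 4. At an unadjusted p under 0.05 in edgeR these 2 groups differed in 5 of 48 members, against 8418 of 20949 genes. With library size alone spaQ and cop1-4 differed in 2 members, both lower in spaQ, where 6.18% of all genes were called lower. After red light the lines differed in 1 member, LHCB7, with DESeq2, with every gene of at least 1 count and with all 21 libraries in 1 fit. Under the replicate block, 6 members were called in phyB-GFP FL, against 3.05% of all genes called higher, and no other count moved by over 1.5 times. Same-numbered deviations correlated on average between -0.26 (phyB-GFP FL dark and red) and 0.12 (phyB-GFP FL and ΔC in darkness) over 9 pairs of groups. In 0 of the 9 were all 3 correlations over 0.1, the limit for taking the numbers as pairs. Every library correlated best with its own number for the lines in darkness and for Col-0 with cop1-4, which is a hint from the data and not the design.

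Leaving out 1 library gave 1 to 2 calls for spaQ against cop1-4, 6 to 23 for phyB-GFP FL red against dark and 2 to 11 for phyB-GFP FL against Col-0. Members named for their small change passed through 0; the cause was not tested. In spaQ against Col-0, LHCB3 came to -0.18 and PETE1 to -0.24 with library size alone, and PETE1 to -0.0014 with DESeq2 size factors in edgeR. Against cop1-4, FNR2 came to -0.0399 with library size alone. Over the left-out libraries the ranges were -0.0186 to 0.0512 for PETE1 in spaQ against Col-0, -0.0547 to 0.0192 for LHCA6 and -0.0741 to 0.0587 for FNR2 in spaQ against cop1-4, and, in phyB-GFP FL red against dark, -0.1392 to 0.2121 for LHCA6, -0.0397 to 0.3882 for PSAH1 and -0.1752 to 0.2722 for FNR1. In phyB-GFP ΔC red against dark they were -0.1262 to 0.1004 for LHCA5, -0.089 to 0.0913 for PSAE2 (-0.011 with the replicate block) and -0.1008 to 0.0716 for PETE2 (0.0035 with all 21 libraries in 1 fit). Between the lines they were -0.0978 to 0.1726 for LHCA4 and -0.0183 to 0.254 for PSAE2 in darkness, and -0.165 to 0.3422 for PSAO (-0.0008 with all 21 libraries) and -0.1443 to 0.2984 for ATPD after red light. For the interaction they were -0.3097 to 0.0422 for LHCA6 and -0.3278 to 0.142 for PSBR. For phyB-GFP FL against Col-0 they were -0.3135 to 0.0727 for LHCB4.1 (0.0169 with library size alone), -0.3267 to 0.1636 for PSBQ1 (-0.0043 with DESeq2 and -0.0044 with its size factors) and -0.3888 to 0.1565 for PSBX (-0.0045 and -0.0046 with these, -0.0063 with the block). Arms left with 1 fewer library kept the pooled spread of the other groups. PSBP2 failed the default filter on low counts in the smaller fits and was tested where that filter was dropped.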
